A study of Drosophila melanogaster with 4 samples.

Results

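From the metallothionein family, 5 genes and the gene of their metal sensor were followed in single nucleus RNA sequencing (snRNA-seq) of the *Drosophila* brain. The 5 were *MtnA* (Dmel_CG9470), *MtnB* (Dmel_CG4312), *MtnC* (Dmel_CG5097), *MtnD* (Dmel_CG33192) and *MtnE* (Dmel_CG42872), and the sensor gene was *MTF-1* (Dmel_CG3743). All were taken by locus tag, and all 6 were among the 17772 genes of the count matrices. Flies of the Canton S (B) laboratory strain (CSB) fed for 6 days either on medium with 250 µM sodium arsenite (NaAsO2) or on control medium, and 10 brains were pooled per library. There was 1 library of each kind: female NaAsO2, female control, male NaAsO2 and male control. Differences between them have no replicate check, so no p-value is given, and every interval below is a 95% interval for counting error only. A ratio is the NaAsO2 library over the control library of the same sex.

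Metallothioneins are small proteins rich in cysteine, whose thiol groups hold copper, zinc, cadmium and other metal ions, and arsenite also binds thiols. In flies, MtnA is best known for its response to copper and MtnB for its response to cadmium. MTF-1 is a zinc finger transcription factor that binds metal response elements in metallothionein promoters when metal is in excess. The fat body, a tissue with functions of liver and adipose tissue, surrounds the brain in the head, and some of it can come along in a brain dissection.

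The genes are short. *MtnA* lies on chromosome 3R from 9783407 to 9784370 of release 6 of the genome, on the minus strand, and its 2 annotated transcripts encode 1 protein of 40 residues. The other 4 of these metallothionein genes lie on the same arm, the nearest of the 4, *MtnC*, after a gap of 10576 kb. *MtnC* (20360308 to 20360634) stands 142 kb before *MtnB* (20503102 to 20503746), which is 30.3 kb before *MtnE* (20534021 to 20534704). *MtnE* and *MtnD* (20534962 to 20535301) are neighbours on opposite strands with 257 bases between them. Their proteins have 43 residues (MtnB and MtnC), 44 residues (MtnD) and 41 residues (MtnE), and each of the 5 genes has at most 2 exons per transcript. *MTF-1* lies on 3L from 9430312 to 9439490 and has 7 transcripts. It overlaps *CG42526* and *Bet3* on the other strand, and *asRNA:CR45872* on its own strand over 467 bases. Whether strand was used in counting is not given in the sources used here, and how shared reads were counted was not tested. The counts of *MTF-1* are uncertain to that extent. At the level of whole libraries, *Bet3* had 13.6 to 20.2 CPM, *CG42526* 1.38 to 2.23 CPM and *asRNA:CR45872* 0 UMIs.

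The 4 matrices held 69415 nuclei and between 33235404 and 53360256 unique molecular identifiers (UMIs, 1 per captured transcript molecule) per library. Nuclei numbered 25332 in the female NaAsO2 library, 19188 in the female control library, 10000 in the male NaAsO2 library and 14895 in the male control library. The male NaAsO2 library held no nucleus under 1766 UMIs, while the lowest nucleus of the other 3 had 500. Median UMIs per nucleus were 1374 in the female NaAsO2 library and 2222 in the female control library. They were 2665.5 in the male NaAsO2 library and 1827 in the male control library, so median depth differed in opposite directions in the sexes. The male NaAsO2 median was thus taken only over nuclei of at least 1766 UMIs, and the part of this in the depth difference was not tested. Of 68916 distinct cell barcodes, 498 occurred in more than 1 library. Levels are CPM, a gene's UMIs over all UMIs of the library or class on the usual CPM scale. The median gene with at least 200 UMIs had a log2 ratio of 0.08 in females and -0.22 in males. Nuclei were clustered without the 6 genes, 23 of 29 clusters were named from marker lists or called neuronal, and 5110 nuclei stayed unnamed. The neuronal gene *elav* was counted in all named classes, with 299 to 689 CPM in fat body-like nuclei and 610 to 909 CPM in neuronal nuclei. Whether RNA of other cells, doublets or misplaced nuclei gave these counts outside neurons was not tested.

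*MtnA* was by far the most counted of the 6 genes, with 140090 UMIs in 46493 nuclei. It had 1093 CPM in the female NaAsO2 library and 631 CPM in the female control library, a ratio of 1.73 (log2 0.79, interval 0.77 to 0.81). In males it had 896 CPM in the NaAsO2 library and 786 CPM in the control library, a ratio of 1.14 (log2 0.19, interval 0.16 to 0.21). *MtnE* was counted 517 times, with 2.98 CPM in the female NaAsO2 library against 2.55 CPM in the female control library, and 4.75 CPM in the male NaAsO2 library against 2.50 CPM in the male control library. The male ratio of *MtnE* was 1.90 (log2 0.93, interval 0.54 to 1.33) and the female one 1.17 (log2 0.22, interval -0.13 to 0.58). *MtnD* had 60 UMIs in all, of which 40 came from the male NaAsO2 library and 2 from the male control library, with 13 in the female NaAsO2 library and 5 in the female control library. These counts gave a male ratio of 19.4 (log2 4.28, interval 2.33 to 7.37) and a female ratio of 3.06 (log2 1.61, interval 0.03 to 3.45).

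*MtnB* and *MtnC* were close to undetected. *MtnB* had 6 UMIs in the female NaAsO2 library and 1 in the female control library, and 2 UMIs in the male NaAsO2 library and 5 in the male control library, each in a separate nucleus. *MtnC* had 1 UMI in the female NaAsO2 library and 0 in each of the other 3. With 3 counts as the limit that a count of 0 allows, *MtnC* stood at no more than 0.0562 CPM in the female control library, 0.0875 CPM in the male NaAsO2 library and 0.0903 CPM in the male control library. No difference in *MtnC* was detectable at this depth.

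*MtnA*, *MtnE* and *MTF-1* reached 200 UMIs over both libraries of a sex in the whole libraries, and none of them differed by 2-fold or more in either sex. Among all genes with that many UMIs, 1.43% were at least 2-fold higher and 0.198% at least 2-fold lower after NaAsO2 in females, and 0.559% at least 2-fold higher and 6.37% at least 2-fold lower in males. *MtnA* ranked 161 of 8093 genes by its ratio in females and 1176 of 7692 genes in males. For *MTF-1*, the levels were 14.7 CPM in the female NaAsO2 library and 16.6 CPM in the female control library, and 17.8 CPM in the male NaAsO2 library and 13.0 CPM in the male control library. The plot of the 6 genes by library shows that *MtnD* and *MtnE* stood highest in the male NaAsO2 library.

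**Figure D1:**
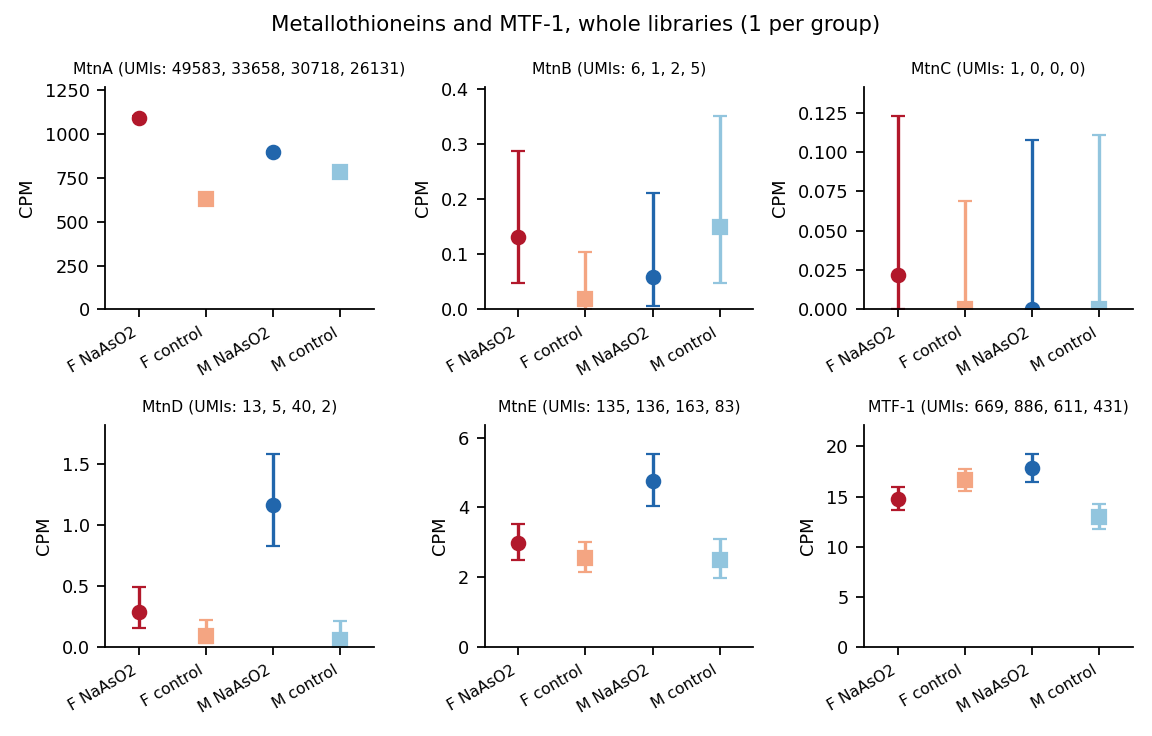
CPM of each gene in the whole female (F) and male (M) NaAsO2 and control libraries, with exact Poisson 95% intervals as bars; the titles give the UMI counts in the order of the axis. *MtnD* had 40 UMIs in the male NaAsO2 library and 2 in the male control library, while *MtnC* had 1 UMI in all.

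*MtnA* differed widely between classes of nuclei. In both NaAsO2 libraries fat body-like nuclei had the highest level, 19036 CPM in females and 10601 CPM in males, followed by subperineurial glia-like nuclei with 4836 CPM and 3725 CPM. Subperineurial glia form the tight inner layer of the blood-brain barrier. In both control libraries subperineurial glia-like nuclei came first, with 2568 CPM in females and 3975 CPM in males. Fat body-like nuclei came after cortex and chiasm glia-like nuclei in the female control library with 951 CPM and next to subperineurial glia-like nuclei in the male control library with 1822 CPM. Cortex glia wrap neuronal cell bodies. Cortex and chiasm glia-like nuclei ranged from 1193 to 1443 CPM over the female NaAsO2 and female control libraries and from 1218 to 1403 CPM over the male NaAsO2 and male control libraries. Neuronal and monoaminergic neuron-like nuclei were among the 3 lowest classes in every library, and neuronal nuclei had 661 CPM in the female NaAsO2 library, 455 CPM in the female control library, 325 CPM in the male NaAsO2 library and 514 CPM in the male control library. Between these ends the order was less sure. In the female NaAsO2 library, plasmatocyte-like, photoreceptor-like, perineurial glia-like, astrocyte-like and ensheathing glia-like nuclei followed each other from 1215.1 to 1111 CPM, and the intervals of neighbours among these 5 classes met. Cluster 17 stayed unnamed and outside this order. Its *MtnA* level was 2743 CPM in the female NaAsO2 library and 1984 CPM in the female control library. In males it was 2380 CPM in the NaAsO2 library and 3628 CPM in the control library.

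**Figure D2:**
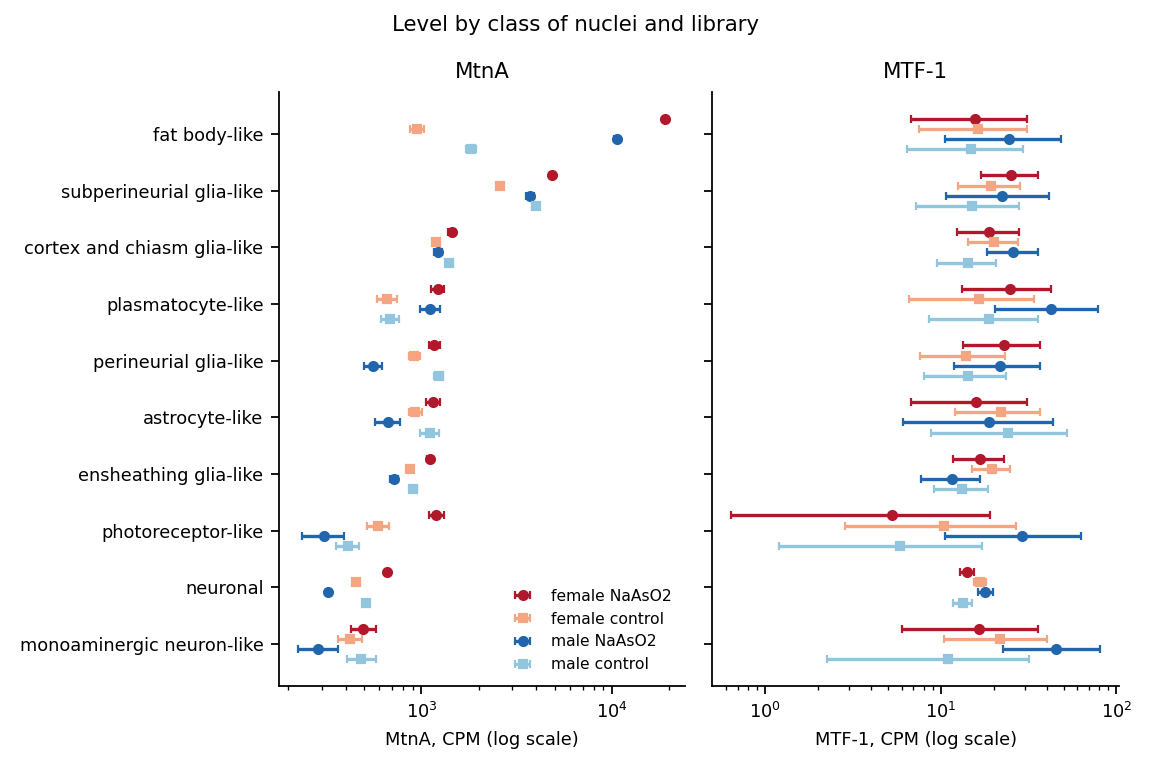
CPM of *MtnA* and *MTF-1* on logarithmic axes by class of nuclei, 1 point per library, with exact Poisson 95% intervals. *MtnA* in fat body-like nuclei was 19036 and 10601 CPM in the NaAsO2 libraries and 951 and 1822 CPM in the control libraries (females first in each pair), while intervals of *MTF-1* overlapped between neighbouring classes.

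Fat body-like nuclei formed 1 cluster of 586 nuclei, and 9 of its 10 leading genes were on the fat body list, among them *Nplp2*, *Obp99c* and *Npc2g*. It held 123 nuclei of the female NaAsO2 library and 185 of the female control library, and 86 nuclei of the male NaAsO2 library and 192 of the male control library. Summed over these nuclei, *MtnA* had 9714 UMIs in the female NaAsO2 library and 523 in the female control library, a ratio of 20.01 (log2 4.32, interval 4.20 to 4.45). In males it had 3468 UMIs in the NaAsO2 library and 974 in the control library, a ratio of 5.82 (log2 2.54, interval 2.44 to 2.64). These were the second largest ratio among 1070 genes in females, below *Bin1*, and the fourth largest among 864 genes in males, below *MsrA*, *Crz* and *GstD1*. Of all such genes, 6.45% in females and 9.72% in males were at least 2-fold higher in fat body-like nuclei after NaAsO2. *MtnA* was the 1 member of the 6 with 200 UMIs in this class.

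The difference was spread over many fat body-like nuclei, but part of them had few fat body marker UMIs. At least 1% of UMIs came from the 22 markers on no other list in 66 of 123 female NaAsO2 nuclei. In the female control library this held for 64 of 185 nuclei. In males it held for 52 of 86 nuclei in the NaAsO2 library and 137 of 192 in the control library. The medians and shares below are over all nuclei of the class, and the part of this mix in them was not tested. The median nucleus held 10 *MtnA* UMIs in the female NaAsO2 library and 2 in the female control library, and 17.5 in the male NaAsO2 library and 2 in the male control library. At least 10 *MtnA* UMIs were found in 52.8% of these nuclei in the female NaAsO2 library and in 5.41% in the female control library. In males, the shares were 67.4% in the NaAsO2 library and 7.29% in the control library. *MtnA* made up 0.495% of a median nucleus' UMIs in the female NaAsO2 library against 0.0749% in the female control library, and 0.517% in the male NaAsO2 library against 0.126% in the male control library. After each nucleus was thinned to 500 UMIs, 78.0% (interval 69.7 to 85.0) of fat body-like nuclei of the female NaAsO2 library and 43.8% (36.5 to 51.3) of those of the female control library kept an *MtnA* UMI. In males, 72.1% (61.4 to 81.2) kept one in the NaAsO2 library and 56.3% (48.9 to 63.4) in the control library. For neuronal nuclei, the lowest of the large classes, the thinned shares were 31.1% in the female NaAsO2 library, 22.6% in the female control library, 15.4% in the male NaAsO2 library and 25.2% in the male control library. Without thinning, the fat body-like shares were 91.9% in the female NaAsO2 library and 79.5% in the female control library, and 98.8% in the male NaAsO2 library and 81.3% in the male control library. Median depths of these nuclei were 1579 and 2066 UMIs in females and 2897 and 1453 UMIs in males, NaAsO2 before control, and neuronal medians were 1365, 2268.5, 2561 and 1924 UMIs in the order of the neuronal shares.

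A few very large nuclei carried much of the female sum. In the female NaAsO2 library, 1 fat body-like nucleus of 45698 UMIs held 3616 *MtnA* UMIs and another of 51095 UMIs held 2019, together 58.0% of the *MtnA* UMIs of the class. Without these 2 nuclei, the level was 9864 CPM and the female log2 ratio 3.37. The highest nucleus held 37 *MtnA* UMIs in the female control library, 441 in the male NaAsO2 library and 167 in the male control library, the last in a nucleus of 80229 UMIs.

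**Figure D3:**
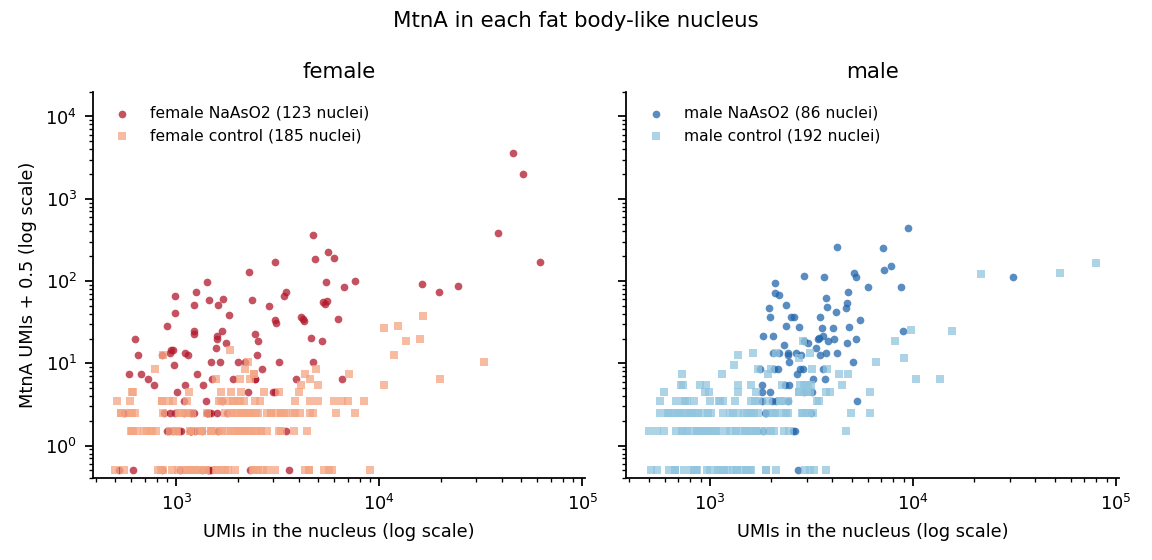
*MtnA* UMIs (0.5 added) against all UMIs in each fat body-like nucleus, both on logarithmic axes, females left and males right. Most NaAsO2 nuclei stand above control nuclei of the same depth; the median nucleus held 10 against 2 *MtnA* UMIs in females and 17.5 against 2 in males.

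At matched depth the *MtnA* difference in fat body-like nuclei was present in every bin that had at least 20 nuclei per library. Between 500 and 1000 UMIs, *MtnA* had 12804 CPM in the female NaAsO2 library and 2980 CPM in the female control library (log2 2.10). Between 1000 and 2000 UMIs the levels were 10104 and 1078 CPM (log2 3.23), and between 2000 and 4000 UMIs 10803 and 841 CPM (log2 3.68), female NaAsO2 before female control. At 4000 UMIs and more they were 22674 CPM in the female NaAsO2 library and 812 CPM in the female control library (log2 4.803), a bin that holds the 2 largest nuclei. In males, the bin of 2000 to 4000 UMIs gave 8131 CPM in the NaAsO2 library and 1420 CPM in the control library (log2 2.52). The makeup of the class was not the same in the libraries, since 22 fat body markers that are on no other list summed to 33084 CPM in the female NaAsO2 library and 13301 CPM in the female control library, and to 33478 CPM in the male NaAsO2 library and 86082 CPM in the male control library. Per 100 UMIs of these markers, *MtnA* had 57.5 UMIs in the female NaAsO2 library and 7.15 in the female control library, and 31.7 in the male NaAsO2 library and 2.12 in the male control library. That is 8.04-fold higher in females and 14.96-fold higher in males. The part of the markers' own differences in these ratios was not tested. When nuclei were picked by at least 1% of their UMIs from those markers in place of the clusters, *MtnA* had 21620 CPM in the female NaAsO2 library against 1224 CPM in the female control library, and 14659 CPM in the male NaAsO2 library against 2010 CPM in the male control library.

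Fat body-like nuclei supplied 19.6% of all *MtnA* UMIs of the female NaAsO2 library from 0.486% of its nuclei, and 1.55% of those of the female control library from 0.964% of its nuclei. In males they supplied 11.3% in the NaAsO2 library from 0.86% of the nuclei, and 3.73% in the control library from 1.29%. Without fat body-like nuclei, *MtnA* in the remaining female nuclei was 1.42-fold higher after NaAsO2 (log2 0.50), and in the remaining male nuclei 1.04-fold higher (log2 0.06).

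In subperineurial glia-like nuclei, *MtnA* was 1.88-fold higher after NaAsO2 in females (4836 CPM in the NaAsO2 library and 2568 CPM in the control library, log2 0.91, interval 0.85 to 0.98) and close to the control level in males (3725 CPM in the NaAsO2 library and 3975 CPM in the control library, log2 -0.09, interval -0.18 to -0.0045). In the female NaAsO2 library, 1 nucleus held 953 of the 5760 *MtnA* UMIs of the class. Without the nucleus of most *MtnA* UMIs in each library, the female ratio was 1.68 (log2 0.75, interval 0.68 to 0.81). The male one was then 0.898 (log2 -0.15, interval -0.25 to -0.06). Nuclei with many *MtnA* UMIs were a minority of this class. They were picked by that count, so a high share of the *MtnA* UMIs in them is partly built in. Nuclei with at least 10 *MtnA* UMIs numbered 74 of 414 in the female NaAsO2 library, 71 of 374 in the female control library, 38 of 96 in the male NaAsO2 library and 70 of 240 in the male control library, and they carried between 81.8% and 91.1% of the *MtnA* UMIs of the class. They were the deeper ones, with medians of 4735 to 6779 UMIs against 936 to 2815 UMIs in the other nuclei of the class. The part of depth in their share of *MtnA* UMIs was not tested. The 21 subperineurial markers that are on no other list summed to 18952 to 28793 CPM in them and to 7772 to 12523 CPM in the other nuclei, so that the nuclei rich in *MtnA* were also richer in the markers of their class. Fat body markers were also higher in the nuclei rich in *MtnA* than in the others in 3 of 4 libraries, with 2895 against 1184 CPM in the female NaAsO2 library, 926 against 661 CPM in the female control library and 1977 against 890.2 CPM in the male NaAsO2 library. In the male control library they had 972 against 2779 CPM. Over the whole class, fat body markers had 2210 CPM in the female NaAsO2 library and 803 CPM in the female control library, 2.75-fold higher, which is more than the difference in *MtnA*. Per 100 UMIs of these markers, *MtnA* had 219 UMIs in the female NaAsO2 library and 320 in the female control library, a fold of 0.685, and 245 UMIs in the male NaAsO2 library and 239 in the male control library, a fold of 1.02. The part of fat body RNA in this class was not tested. At matched depth, the female log2 ratio of the class lay between 0.32 and 1.11 over 4 bins. The male one was -1.30 at 2000 to 4000 UMIs and 0.14 at 4000 UMIs and more, so that its direction turned with depth.

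Plasmatocytes, the phagocytic blood cells of the fly, were the other named class with a higher summed *MtnA* level in both sexes. Plasmatocyte-like nuclei had 1215.1 CPM in the female NaAsO2 library and 661 CPM in the female control library (log2 0.88, interval 0.67 to 1.09), and 1111 CPM in the male NaAsO2 library and 682 CPM in the male control library (log2 0.70, interval 0.46 to 0.94). Their *MtnA* counts of 635 and 282 UMIs in females and 261 and 327 UMIs in males, NaAsO2 before control, were small. The median nucleus of this class held 1 or 2 *MtnA* UMIs in every library. *MtnA* made up 0.0515% of a median nucleus' UMIs in the male NaAsO2 library and 0.0532% in the male control library. In females these shares were 0.0686% and 0.0570%. In the NaAsO2 libraries, 1 nucleus held 106 of the 635 UMIs in females and 1 held 43 of the 261 in males. Without the nucleus of most *MtnA* UMIs in each library, the ratios were 1.73 in females and 1.44 in males.

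In the other named classes the sexes went opposite ways in CPM. Unnamed nuclei, apart from cluster 14 described below, had a higher *MtnA* level after NaAsO2 in both sexes. Their log2 ratios were 0.45 (interval 0.39 to 0.51) in females and 0.66 (interval 0.59 to 0.72) in males. *MtnA* CPM was higher after NaAsO2 in all 10 named classes of females, with an interval above 0 in 9, and lower in 8 of 10 classes of males, with an interval below 0 in all 8. Perineurial glia-like nuclei, the outer layer of the blood-brain barrier, had 1170.2 CPM in the female NaAsO2 library against 918 CPM in the female control library, and 558 CPM in the male NaAsO2 library against 1231 CPM in the male control library (log2 -1.14). Astrocyte-like nuclei had 1154 CPM in the female NaAsO2 library against 930.2 CPM in the female control library, and 666 CPM in the male NaAsO2 library against 1105 CPM in the male control library (log2 -0.73). Genes that mark these classes also differed. *Tret1-1* in perineurial glia-like nuclei had 692 and 1460 CPM in males and 837 and 737 CPM in females, NaAsO2 before control. *alrm* in astrocyte-like nuclei had 311 and 1837 CPM in males and 1516 and 1286 CPM in females. In the same order, *elav* in astrocyte-like nuclei had 670 and 436 CPM in males and 612 and 799 CPM in females. The part of class makeup in the *MtnA* differences was not tested. Photoreceptor-like nuclei had 1198 CPM in the female NaAsO2 library and 593 CPM in the female control library, but 170 of the 453 *MtnA* UMIs in the female NaAsO2 library came from 1 nucleus. Without the nucleus of most *MtnA* UMIs in each library, the levels were 783 CPM and 575 CPM, a ratio of 1.36 (log2 0.45) in place of 2.02. Ensheathing glia-like nuclei had log2 ratios of 0.36 in females and -0.33 in males, and neuronal nuclei of 0.54 (interval 0.51 to 0.57) in females and -0.66 (interval -0.71 to -0.62) in males. At matched depth the ensheathing glia-like ratios were uneven. In females they were 0.26 at 500 to 1000 UMIs, 0.04 at 1000 to 2000, -0.06 at 2000 to 4000 and 0.46 at 4000 and more. In males they were -0.46 at 1000 to 2000 UMIs, -0.13 at 2000 to 4000 (interval -0.29 to 0.04) and 0.05 at 4000 and more (interval -0.14 to 0.25). Counted as unscaled UMIs per nucleus, *MtnA* went the other way in females in ensheathing, cortex and chiasm and perineurial glia-like and neuronal nuclei, and in males in all 5 kinds of glia-like nuclei. The male NaAsO2 library held no nucleus under 1766 UMIs, which bears on its unscaled counts. Fat body markers in CPM mostly moved the same way as *MtnA* CPM. They were higher in the NaAsO2 library in all 10 classes of females and lower in all 10 classes of males, including the 8 in which *MtnA* was lower. In astrocyte-like nuclei they had 309.8 CPM in the female NaAsO2 library against 193 CPM in the female control library, and 303 CPM in the male NaAsO2 library against 536 CPM in the male control library. Relative to these markers, *MtnA* was 0.772-fold the control level in astrocyte-like nuclei of females and 1.07-fold in those of males, and 1.23-fold and 1.34-fold in ensheathing glia-like nuclei. Over the 10 classes, *MtnA* per marker UMI was higher after NaAsO2 in 7 and lower in 3 in each sex. The part of fat body RNA in these differences was not tested. With 1 library per group, the difference between the sexes could not be tested.

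**Figure D4:**
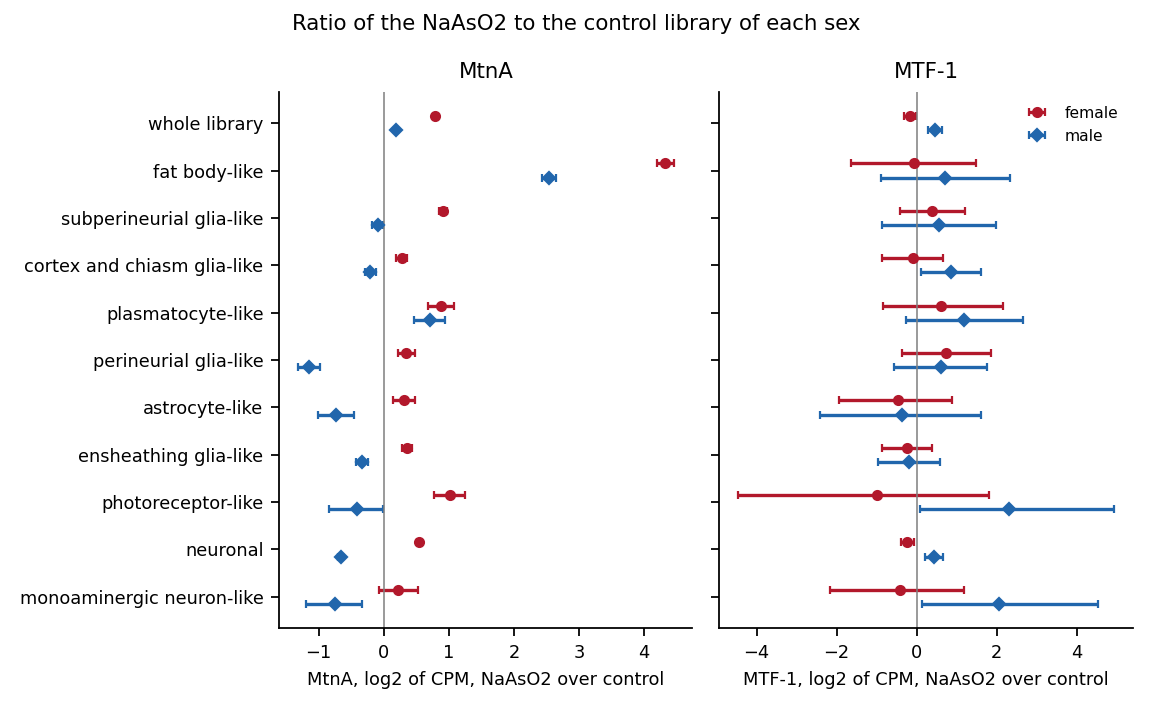
Log2 ratio of the NaAsO2 library over the control library for *MtnA* and *MTF-1*, by class and sex, with exact conditional binomial 95% intervals. *MtnA* lies at 4.32 in fat body-like nuclei of females and 2.54 of males, while in neuronal nuclei it lies at 0.54 in females and -0.66 in males.

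These smaller *MtnA* differences moved with depth. In neuronal nuclei of the female NaAsO2 library, *MtnA* was 1085 CPM in nuclei of 500 to 1000 UMIs, 734 CPM at 1000 to 2000 UMIs, 506 CPM at 2000 to 4000 UMIs and 386 CPM above 4000 UMIs, and the other libraries showed the same decline. Over the same bins, *elav* stayed between 790.3 and 851 CPM. Mean *MtnA* counts per neuronal nucleus were 1.10 UMIs in the female NaAsO2 library, 1.24 in the female control library, 1.02 in the male NaAsO2 library and 1.16 in the male control library, so that both NaAsO2 libraries were lower by this measure. Within bins of depth, the female log2 ratio was -0.00097 at 500 to 1000 UMIs, 0.20 at 1000 to 2000 UMIs, 0.18 at 2000 to 4000 UMIs and 0.26 above 4000 UMIs. In males it was -0.52 at 1000 to 2000 UMIs, -0.43 at 2000 to 4000 UMIs and -0.64 above 4000 UMIs. Thus the female difference was less than that of the whole class in every bin, while the male one lay between -0.43 and -0.64 in its bins against -0.66 in the whole class. The part of depth in these differences was not tested further.

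**Figure D5:**
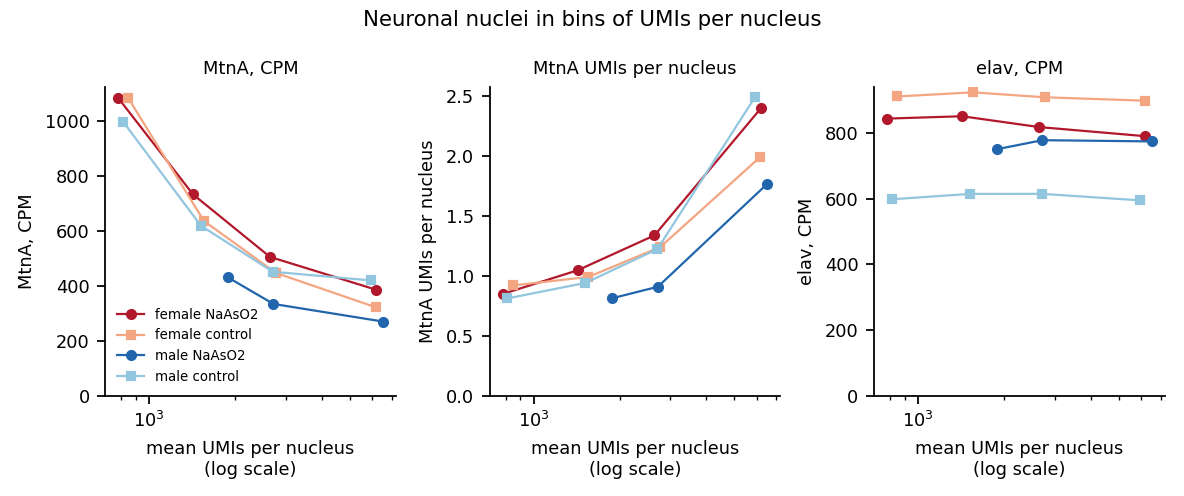
Neuronal nuclei in bins of UMIs per nucleus (bin mean on a logarithmic axis): *MtnA* in CPM, *MtnA* UMIs per nucleus, and *elav* in CPM, 1 line per library. *MtnA* CPM in the female NaAsO2 library is 1085 in the lowest bin and 386 in the highest, while *elav* stays between 790.3 and 851 CPM.

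Fat body markers were also counted in neuronal nuclei, at 174 to 313 CPM in sum. Per 100 UMIs of the 22 fat body markers, neuronal nuclei had 287 *MtnA* UMIs in the female NaAsO2 library, 262 in the female control library, 151 in the male NaAsO2 library and 165 in the male control library. The values for fat body-like nuclei of the same libraries were 57.5, 7.15, 31.7 and 2.12. What these ratios say of the source of *MtnA* RNA in neuronal nuclei was not tested. Among the 12 neuronal clusters, *MtnA* ranged from 434 to 1095 CPM in the female NaAsO2 library, 329 to 863 CPM in the female control library, 224 to 742 CPM in the male NaAsO2 library and 407 to 1598 CPM in the male control library, and no neuronal cluster reached the level of subperineurial glia-like nuclei.

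One unnamed cluster bears on the male libraries. Cluster 14 held 1058 nuclei of the male NaAsO2 library against 28 of the male control library, and 37 of the female NaAsO2 library against 182 of the female control library. None of its 10 leading genes, *CG32726*, *Uhg4*, *Cyp4d2*, *Gnmt* and *MsrA* among them, was on the list that matched it best, and a cluster mostly of 1 library may be that library and not a cell type. In the male NaAsO2 library its nuclei held 10940 *MtnA* UMIs, or 2643 CPM, with a median of 9 per nucleus, and supplied 35.6% of the *MtnA* UMIs of the library from 10.6% of its nuclei. Its level in the other libraries was 2384 CPM in the female NaAsO2 library, 1899 CPM in the female control library and 1692 CPM in the male control library. *MtnE* had 51 of its 163 UMIs of the male NaAsO2 library there, and *MtnD* 14 of 40. Without cluster 14, the male ratio of *MtnA* over the whole library was 0.835 (log2 -0.26), below 1, that of *MtnE* was 1.49 (log2 0.57) and that of *MtnD* 14.3 (log2 3.84).

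*MtnD* and *MtnE* were also found in fat body-like nuclei. *MtnD* had 6 UMIs there in the female NaAsO2 library and 0 in the female control library, and 14 UMIs in the male NaAsO2 library and 1 in the male control library. In males, these counts gave a log2 ratio of 4.52 (interval 1.80 to 9.92). *MtnE* had 18 UMIs in fat body-like nuclei of the female NaAsO2 library and 4 in those of the female control library (log2 2.28, interval 0.68 to 4.30). The 18 UMIs came from 8 nuclei with a median depth of 22490.5 UMIs. Under other settings this female log2 ratio ranged from 0.996 to 2.84. In males *MtnE* had 16 UMIs in the NaAsO2 library and 3 in the control library (log2 3.12, interval 1.32 to 5.54). In CPM, *MtnE* in this class was 35.3 in the female NaAsO2 library and 7.28 in the female control library, and 48.9 in the male NaAsO2 library and 5.61 in the male control library. Outside fat body-like nuclei, *MtnD* had 7 UMIs in the female NaAsO2 library and 5 in the female control library, and 26 UMIs in the male NaAsO2 library, 14 of them in cluster 14, and 1 in the male control library. In neuronal nuclei *MtnE* had 2.60 CPM in the female NaAsO2 library and 2.64 CPM in the female control library, and 3.48 CPM in the male NaAsO2 library and 3.07 CPM in the male control library, with both intervals of the ratio on either side of 0.

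Fat body-like nuclei with *MtnD* or *MtnE* held more *MtnA* in the median than those without. In fat body-like nuclei of the male NaAsO2 library, 10 nuclei with *MtnD* had a median of 87.5 *MtnA* UMIs and the 76 without it a median of 13, at median depths of 3663 and 2893.5 UMIs. For *MtnE*, 9 nuclei with it had a median of 110 *MtnA* UMIs and the others 16, at depths of 3768 and 2890 UMIs. In the female NaAsO2 library, 8 nuclei with *MtnE* had a median of 170 *MtnA* UMIs against 10 in the others, but their median depth was 22490.5 against 1488 UMIs. There, 3 nuclei with *MtnD* had a median of 2019 *MtnA* UMIs against 10 in the others, at median depths of 45698 and 1531 UMIs. *MtnB* had 1 UMI and *MtnC* none in fat body-like nuclei of all 4 libraries.

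*MTF-1* was counted 2597 times in 2418 nuclei. Its level was lower after NaAsO2 in females, 14.7 CPM against 16.6 CPM in the control library, a ratio of 0.888 (log2 -0.17, interval -0.32 to -0.02). In males it was higher, 17.8 CPM against 13.0 CPM in the control library, a ratio of 1.37 (log2 0.46, interval 0.28 to 0.64). Neuronal nuclei, which held most of the counts, showed the same, with 14.2 CPM in the female NaAsO2 library and 16.6 CPM in the female control library (log2 -0.23, interval -0.40 to -0.06), and 17.9 CPM in the male NaAsO2 library and 13.3 CPM in the male control library (log2 0.43, interval 0.20 to 0.66). At matched depth these differences were not even. In neuronal nuclei of females, *MTF-1* had 15.1 CPM in the NaAsO2 library and 14.4 CPM in the control library at 500 to 1000 UMIs, and 16.1 CPM and 14.8 CPM at 1000 to 2000 UMIs, with intervals of the log2 ratio on either side of 0. At 2000 to 4000 UMIs it had 12.1 CPM in the female NaAsO2 library and 17.6 CPM in the female control library (log2 -0.54, interval -0.84 to -0.25), and above 4000 UMIs 12.2 CPM and 16.4 CPM (log2 -0.43, interval -0.91 to 0.03). In males it had 18.4 CPM in the NaAsO2 library and 13.7 CPM in the control library at 1000 to 2000 UMIs (log2 0.42, interval -0.14 to 0.97). It was higher in the male NaAsO2 library at 2000 to 4000 UMIs (18.7 CPM against 12.3 CPM in the control library, log2 0.60, interval 0.28 to 0.94), while above 4000 UMIs it had 16.3 CPM in the NaAsO2 library and 15.8 CPM in the control library (log2 0.05, interval -0.40 to 0.51). Over the 10 named classes, *MTF-1* was higher after NaAsO2 in 8 in males, with the interval above 0 in 4. In females it was higher in 3 and lower in 7, with the interval below 0 in 1. The male log2 ratios of 2.30 in photoreceptor-like and 2.05 in monoaminergic neuron-like nuclei rested on 6 against 3 and 11 against 3 UMIs. Class levels of *MTF-1* lay between 5.29 and 45.2 CPM. In each library the interval of every class met that of the class next above it, but not always those further up. In the female NaAsO2 library, subperineurial glia-like nuclei (25.2 CPM, interval 16.99 to 35.96) stood above neuronal nuclei (14.2 CPM, interval 13.0 to 15.5). In the male NaAsO2 library, cortex and chiasm glia-like nuclei (25.9 CPM, interval 18.4 to 35.6) stood above ensheathing glia-like nuclei (11.6 CPM, interval 7.76 to 16.6). In fat body-like nuclei it had 8 UMIs in the female NaAsO2 library and 9 in the female control library (15.7 and 16.4 CPM), and 8 UMIs in each male library (24.5 CPM in the NaAsO2 library and 14.97 CPM in the control library). The intervals of these log2 ratios, -1.64 to 1.48 in females and -0.90 to 2.32 in males, leave a 2-fold difference in *MTF-1* undetectable in the nuclei where *MtnA* differed most. Subperineurial glia-like nuclei had 25.2 CPM in the female NaAsO2 library and 19.3 CPM in the female control library, and 22.4 CPM in the male NaAsO2 library and 15.2 CPM in the male control library, on 10 to 30 UMIs each. After thinning to 500 UMIs, between 0.564% and 0.844% of all nuclei of a library had an *MTF-1* UMI.

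A list of 18 other genes of metal handling and glutathione synthesis was set beside the members, and all 18 were in the matrices. In the whole libraries 15 of them had 200 UMIs in each sex. None was 2-fold higher or lower in females, and in males none was 2-fold higher and 3 were at least 2-fold lower after NaAsO2: *Sod1*, *ZnT77C* and *MtnF*, against 6.37% of all genes lower in males. The median log2 ratio of the list was 0.10 in females and -0.34 in males, beside 0.08 and -0.22 for all genes. *MtnF*, a further metallothionein gene, had 31.3 CPM in the female NaAsO2 library and 26.5 CPM in the female control library, and 20.4 CPM in the male NaAsO2 library and 42.0 CPM in the male control library (log2 -1.04, interval -1.18 to -0.91). In fat body-like nuclei, 3 of the 18 had 200 UMIs. *Gclc*, the catalytic subunit of the enzyme that limits glutathione synthesis, had 286 CPM in the female NaAsO2 library and 122 CPM in the female control library (log2 1.23, interval 0.80 to 1.67), and 553 CPM in the male NaAsO2 library and 107 CPM in the male control library (log2 2.38, interval 1.94 to 2.83). It was the 1 gene of the 3 past 2-fold, and it was past it in both sexes. Of all genes with 200 UMIs in this class, 6.45% in females and 9.72% in males were at least 2-fold higher. At least 2-fold lower were 2.24% in females and 12.6% in males.

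Known targets of MTF-1 outside the metallothioneins gave mixed values. *Fer1HCH*, the ferritin heavy chain that stores iron, had 645 CPM in the female NaAsO2 library and 549 CPM in the female control library (log2 0.23), and 397 CPM in the male NaAsO2 library and 503 CPM in the male control library (log2 -0.34). In fat body-like nuclei it had 948 CPM in the female NaAsO2 library and 549 CPM in the female control library (log2 0.79), and 1061 CPM in the male NaAsO2 library and 556 CPM in the male control library (log2 0.93). *Ctr1B*, a copper importer, had 73 UMIs in the female NaAsO2 library and 72 in the female control library, and 74 UMIs in the male NaAsO2 library and 96 in the male control library, and both intervals of its log2 ratio included 0. In fat body-like nuclei it had 10 UMIs in the female NaAsO2 library and 1 in the female control library, and 11 UMIs in the male NaAsO2 library and 23 in the male control library. *ZnT35C*, a zinc exporter, had 40 UMIs in the female NaAsO2 library and 27 in the female control library (log2 0.80, interval 0.06 to 1.56), and 22 UMIs in the male NaAsO2 library and 38 in the male control library (log2 -0.83, interval -1.66 to -0.04).

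Over the 10 named classes in 4 libraries, 40 points that share libraries and depth, the genes whose log2(CPM + 5) was most like that of *MtnA* were *GstE3* (r = 0.86), *Idh* (0.86), *AOX1* (0.86), *yip2* (0.85) and *pst* (0.85), out of 8798 genes with at least 200 UMIs. *GstE3*, a glutathione transferase, had 74.5 CPM in fat body-like nuclei of the female NaAsO2 library against 5.46 CPM in the female control library, and 162 CPM in those of the male NaAsO2 library against 28.1 CPM in the male control library. *AOX1*, an aldehyde oxidase, had 72.5 CPM against 5.46 CPM in females and 171 CPM against 37.4 CPM in males, NaAsO2 before control. The others differed less there. In the same order, *Idh* had 218 against 92.8 CPM in females and 336 against 277 CPM in males. *yip2* had 106 against 71.0 CPM and 128 against 105 CPM. *pst* had 345 against 167 CPM in females but 345 against 408 CPM in males. These values are among the points from which the likeness was taken. For *MTF-1*, the closest were *LKRSDH* (r = 0.65), *Atg18a* (0.65), *Targ3* (0.59), *kuz* (0.59) and *Pi3K68D* (0.58), weak values on sparse counts.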

How the data were processed

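Reads were mapped by the authors with Cell Ranger (3.1 per the labels, 7.0.1 per the file headers) on genome release 6, and the deposited values are raw UMI counts for each gene in each nucleus, not normalized. Total counts ran from 33235404 to 53360256 per library. Of 17772 genes, 17705 were matched to RefSeq by locus tag. Python 3.11.15, NumPy 2.4.6, SciPy 1.17.1, pandas 2.3.3 and matplotlib 3.10.9 were used. Pearson residuals (theta 100) of 3000 variable genes, without the members, the metal list, Turandot, *Yp*, *roX*, mitochondrial and rRNA genes, gave 10 principal components (20 neighbours, Louvain resolution 1, scikit-learn 1.9.0, python-igraph 0.11.9) and 29 clusters. A cluster was named when at least 5 of its 10 leading genes were on 1 marker list. Glial names also needed 2 of *repo*, *loco* and *nrv2* at least 2-fold higher. An unnamed cluster was called neuronal where most neuronal markers had at least 0.8 of their level in the other nuclei, unless *Muc68D* or *CG14645* led it. These limits were chosen with the clusters in view, and kept out clusters 17 and 27 (1.27% and 0.237% of female NaAsO2, 2.00% and 0.235% of female control, 0.75% and 0.14% of male NaAsO2, and 2.26% and 0.181% of male control nuclei). Doublets stayed in, except in an alternative with Scrublet scores (scanpy 1.11.5).

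UMIs were summed per class and library, since nuclei are not replicates. Intervals are exact Poisson for CPM, exact conditional binomial for ratios and exact (Clopper-Pearson) for shares. They cover counting error only. The calculations were tested on simulated data. A gene was called at 2-fold if both libraries of the sex summed to 200 UMIs or more. Named were the 6 members, genes of the metal list past 2-fold in both sexes with *Ctr1B*, *ZnT35C* and *Fer1HCH*, and the 5 genes most like *MtnA* and *MTF-1*; *Sod1*, *ZnT77C*, *MtnF* and the genes ranked above *MtnA* were named after their values were seen. The members and lists were chosen with earlier results of these data known. Cluster 14, the nuclei of most *MtnA* UMIs, *MTF-1* at matched depth and the pick by markers were looked at after seeing the data. Sequences were not used here.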

Additional observations from a re-analysis of the deposited data

Results flagged for a closer look

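With 1 library per group none of the following differences between the sexes was tested; each was taken because the counting intervals of the log2 ratio (NaAsO2 over control) lay on opposite sides of 0 in females and males. For *MtnA*, the female minus male log2 ratio was 1.04 in astrocyte-like, 0.69 in ensheathing glia-like, 0.48 in cortex and chiasm glia-like, 1.49 in perineurial glia-like and 1.01 in subperineurial glia-like nuclei. It was 1.20 in neuronal and 1.43 in photoreceptor-like nuclei, where 1 nucleus held 170 of the 453 *MtnA* UMIs of the female NaAsO2 library. Without the nucleus of most *MtnA* UMIs in each library, the photoreceptor-like log2 ratio was 0.45 in females and -0.43 in males. The subperineurial glia-like one was then 0.75 in females and -0.15 in males. In bins of depth, the ensheathing glia-like log2 ratio lay between -0.06 and 0.46 in females and between -0.46 and 0.05 in males. Fat body markers were higher in all 10 classes of females and lower in all 10 of males after NaAsO2, and their part was not tested. For *MTF-1* it was -0.63 in the whole libraries and -0.66 in neuronal nuclei. Median depth per nucleus also differed in opposite ways, with 1374 UMIs in the female NaAsO2 library against 2222 in the female control library, and 2665.5 UMIs in the male NaAsO2 library against 1827 in the male control library. The male NaAsO2 library held no nucleus under 1766 UMIs. Sex and library cannot be told apart in this design.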

How the results depend on the processing

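Of 346 values under other settings, 237 stayed within their counting interval, 96 left it and 13 turned. In the whole libraries, the female log2 ratio of *MtnA* (0.79) was 0.16 as unscaled UMIs per nucleus, 0.71 relative to the median gene, 0.48 as the mean of nuclei scaled one by one, 0.98 in nuclei of at least 1766 UMIs, 0.92 without doublets and 0.50 without fat body-like nuclei. The male one (0.19) was 0.81, 0.40, -0.16, 0.35, 0.22 and 0.061 in the same order, and -0.26 without cluster 14, so its direction depends on these choices. In fat body-like nuclei, the female ratio (4.32) was 4.804 unscaled, 4.57 relative to the median gene, 3.25 as the mean of scaled nuclei, 4.59 in nuclei of at least 1766 UMIs, 4.68 with 30 components, 4.14 in nuclei picked by markers and 3.37 without the 2 largest. The male one (2.54) was 2.99 unscaled, 2.09 relative to the median gene, 2.43 with metallothionein and Turandot genes out of the totals and 2.87 in nuclei picked by markers. *MTF-1* (-0.17 in females, 0.46 in males) was -0.81 and 1.08 unscaled, and 0.68 relative to the median gene in males. Unscaled, *MtnA* turned in astrocyte-like (males, 0.79), ensheathing (females, -0.12; males, 0.91), cortex and chiasm (females, -0.15; males, 0.76), perineurial (females, -0.22; males, 0.020), subperineurial (males, 0.66) and neuronal nuclei (females, -0.18). In nuclei of at least 1766 UMIs it turned in males in ensheathing (0.035) and photoreceptor-like nuclei (0.086). The cause was not tested. No paired analysis was possible because each group is 1 library. Shares of all genes past 2-fold move with the minimum count: at 50 UMIs, females had 2.63% higher and 0.399% lower, males 1.13% higher, and at 1000 UMIs the higher ones were 0.441% in females and 0.369% in males.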
